A study of Mus musculus with 18 samples.

Results

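Has2, Ptgs2, Tnfaip6, Ptx3, Vcan, Areg and Ereg, 7 genes switched on in cumulus cells when the cumulus expands before ovulation, were followed in RNA-seq libraries of mouse oocytes, mainly in 6 libraries of MII oocytes. They were picked by gene symbol for what they are known to do, as a check for cumulus cell RNA. No rule on their values was used, but earlier results of these data were known. They are 7 of the 53715 genes in the deposited count table. The series held 18 libraries in 6 groups of 3. The oocytes came from primordial follicles, from primary follicles or from the MII stage, and at each stage from mice labelled sham and from mice labelled NTY. All animals were of the cross C57Bl/6j x CBA/J and all material was collected in vivo. No other allele, agent or age is labelled, and the labels do not explain NTY. They say neither how cumulus cells were removed from the MII oocytes nor how many oocytes entered a library. Because no label ties the replicates to separate animals, every p-value measures the spread between these libraries, which may be technical.

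MII oocytes are eggs arrested at the second meiotic metaphase, the stage at which they are ovulated. Before ovulation, luteinizing hormone makes granulosa cells release the EGF-like ligands amphiregulin and epiregulin, which act on the EGF receptor of cumulus cells. Cumulus cells then switch on prostaglandin and hyaluronan synthesis and bind the hyaluronan into a matrix that spreads them around the egg. Oocyte factors such as GDF9 enable that response, while the expansion genes are known as products of the somatic cells. In a bulk library, fewer cells of a type and less RNA per cell cannot be told apart.

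The 12 libraries of primordial and primary follicles were made from laser-microdissected cells with an amplification and exon capture method, and the MII libraries with the Smart-seq II method. Library method and stage cannot be told apart, so values of the MII and microdissected libraries are set side by side without a test. Total counts ran from 8652089 to 9978830 per MII library, with a median of 9118278, and from 15149564 to 29205503 per microdissected library. Levels are given as raw reads counted, as reads per 1000000 counted in the library (CPM), and as the deposited TPM where levels of different genes are compared, because TPM is scaled by transcript length and then to a sum of 1000000 in each library. A count of 0 allows a level of up to 3 counts, which is 0.301 to 0.347 CPM in an MII library and 0.103 to 0.198 CPM in a microdissected one. These limits and the 95% exact binomial (Clopper-Pearson) intervals on single libraries cover counting error only.

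The MII libraries held almost no reads of the expansion genes. Over all 7 genes and 6 libraries, 67 reads were counted, and 5 of the 42 values were above 0. Areg, Ereg, Tnfaip6 and Ptx3 had no read in any MII library. Ptgs2 and Has2 had reads in the same pair of sham libraries, and Vcan in 1 NTY library. Thus 3 of the 7 genes had a count in at least 1 MII library, against 66.8% of the 21890 protein-coding genes in the table. The 12 oocyte markers together reached 7381 to 11399 CPM in the same libraries, and 11 of them had counts in all 6.

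**Figure D1:**
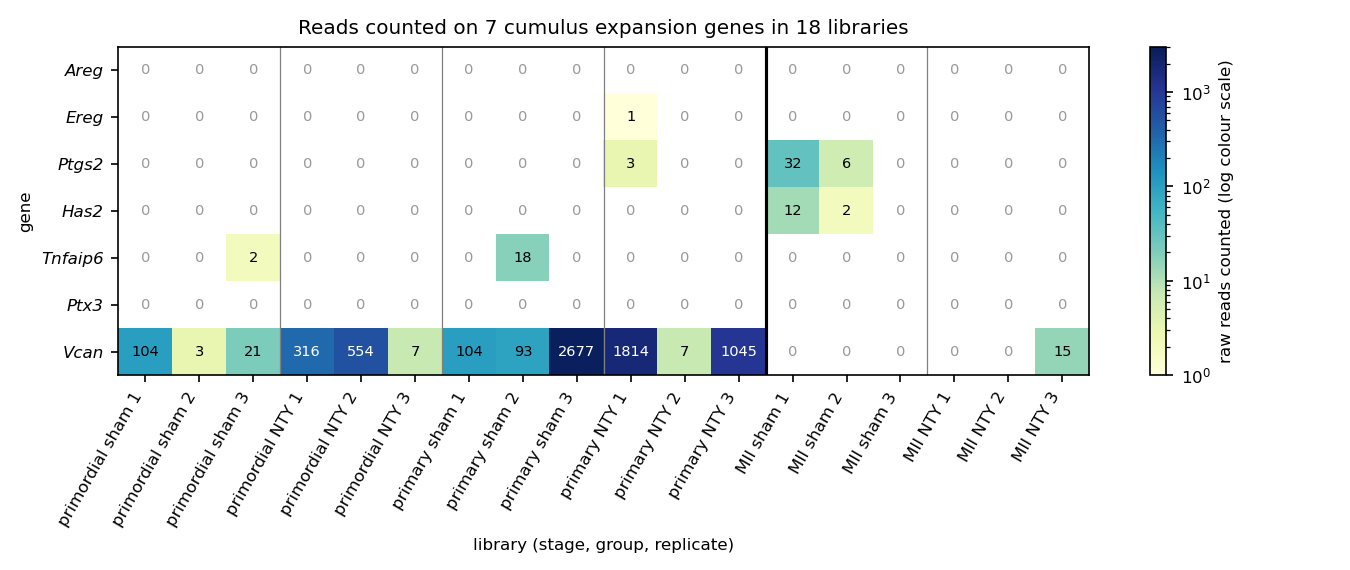
Raw reads counted on each of the 7 genes (rows) in each of the 18 libraries (columns, by stage, group and replicate), with the count printed in each cell and a log colour scale. In the 6 MII libraries at the right, 5 cells are above 0, while the Vcan row is above 0 in all 12 microdissected libraries at the left.

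The ligands Areg (ENSMUSG00000029378, chromosome 5, 91139599 to 91148432, GRCm38, plus strand) and Ereg (ENSMUSG00000029377, chromosome 5, 91074622 to 91093646, plus strand) lie near each other and encode amphiregulin and epiregulin. Areg was at 0 counts in all 18 libraries. Over the 55179738 reads of the MII libraries, that allows a pooled level of up to 0.0544 CPM, and over the 280831624 reads of the microdissected ones up to 0.0107 CPM. Ereg was at 0 in all 6 MII libraries and in 11 of the 12 microdissected libraries, with a single read in primary NTY replicate 1. Neither ligand could be detected in MII oocytes at this depth.

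Ptgs2 (ENSMUSG00000032487, chromosome 1, 150100031 to 150108227, plus strand) encodes cyclooxygenase 2, which makes the precursor of prostaglandin E2. It had 32, 6 and 0 reads in MII sham replicates 1, 2 and 3 and 0 reads in each of the 3 MII NTY libraries. The level was 3.34 CPM (95% interval 2.29 to 4.72) in sham replicate 1 and 0.601 CPM (0.221 to 1.31) in sham replicate 2. Sham replicate 1 stood above the other 5 libraries, and its interval did not reach that of sham replicate 2, so the spread within the sham group was larger than counting error. The groups overlapped, since sham replicate 3 was at 0 like the NTY libraries. Pooled over libraries, Ptgs2 was at 1.34 CPM in sham, 11.9-fold the 0.112 CPM that 3 counts over the NTY group would give. Such a ratio to the floor leaves out the error of the reads above it. Without sham replicate 1 the ratio was 2.83-fold, resting on 6 reads. An exact two-sided permutation test over the 6 libraries gave p = 0.4. With reads in only 2 of the 6, that is the smallest p these values could give, so the test could not separate the groups. Even without ties, 3 libraries against 3 cannot give a p below 0.1.

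Has2 (ENSMUSG00000022367, chromosome 15, 56665627 to 56694539, minus strand) encodes hyaluronan synthase 2, which makes the backbone of the cumulus matrix. It had 12, 2 and 0 reads in MII sham replicates 1, 2 and 3 and 0 reads in each MII NTY library. The level was 1.25 CPM (0.647 to 2.19) in sham replicate 1 and 0.200 CPM (0.0243 to 0.724) in sham replicate 2. The order of the libraries was that of Ptgs2, and here the 2 intervals overlapped. The pooled sham level of 0.492 CPM was 4.38-fold the floor of the NTY group, a ratio that rests on sham replicate 1 because 2 reads remain without it. The exact two-sided permutation test again gave p = 0.4, the smallest p possible with reads in 2 libraries, so it could not separate the groups. Has2os, a gene on the opposite strand that overlaps Has2, had 1 read in MII sham replicate 1 and none elsewhere. Whether the counting used strand is not given in the sources used here, so reads of the pair cannot be told apart with certainty.

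Per transcript length, Ptgs2 reached 1.65 TPM and Has2 0.670 TPM in MII sham replicate 1, and 0.372 and 0.134 TPM in sham replicate 2. In sham replicate 1, Ptgs2 had more reads than 29.1% of the 11806 protein-coding genes with a count there, whose median was 108 reads, and Has2 more than 15.4% of them. A pattern of reads in at least 2 MII sham libraries and none in any MII NTY library, which both genes showed, was held by 4.8% of protein-coding genes (1050 of 21890). With at least the Ptgs2 counts in sham replicates 1 and 2 and 0 in the other 4 MII libraries, there were 16 protein-coding genes, Ptgs2 included. The opposite pattern, reads in at least 2 NTY libraries and none in sham, was held by 0.192% of protein-coding genes and by none of the 7. The sham libraries had reads on 16608 ± 1455 genes (SD, n = 3) and the NTY libraries on 13105 ± 441 (n = 3), a difference that ran the same way as Ptgs2 and Has2. Within sham the order differed, with reads on 15442, 18239 and 16142 genes in replicates 1, 2 and 3. The part of the number of genes in the pattern of Ptgs2 and Has2 was not tested.

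The expansion genes that encode matrix proteins had no reads in the MII sham libraries. Tnfaip6 (ENSMUSG00000053475, chromosome 2, 52038009 to 52056686, plus strand), whose product transfers heavy chains onto hyaluronan, and Ptx3 (ENSMUSG00000027832, chromosome 3, 66219910 to 66225805, plus strand), whose pentraxin crosslinks them, were at 0 in all 6 MII libraries. Veph1, a gene on the opposite strand over Ptx3, had 0 to 6 reads in them. Vcan (ENSMUSG00000021614, chromosome 13, 89655312 to 89742509, minus strand), which encodes the hyaluronan-binding proteoglycan versican, had 0, 0 and 0 reads in MII sham and 0, 0 and 15 in MII NTY. NTY replicate 3 was at 1.73 CPM (0.970 to 2.86) and 0.306 TPM, and the other 5 MII libraries were at 0. The pooled NTY level of 0.561 CPM was 5.32-fold the 0.105 CPM floor of the sham group, and it was 0 without NTY replicate 3. With reads in a single library, the exact two-sided permutation p could only be 1.0, so it says nothing about the groups. At least 10 reads in NTY replicate 3 and none in the other MII libraries were counted for 39 of 21890 protein-coding genes.

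None of the 7 genes passed edgeR's filter on low counts in the MII libraries, so none was tested in the comparison of NTY with sham. That comparison called 0% of the 12209 genes tested (0 genes at a Benjamini-Hochberg adjusted p under 0.05 in the quasi-likelihood test of edgeR). An unadjusted p under 0.05 was reached by 280 of them, and DESeq2, run on the same genes, called 29 (0.238%), all lower in NTY. With every gene that had any count kept in the edgeR fit, the log2 fold change of NTY over sham was -6.70 (SE 2.95) for Ptgs2, -5.29 (SE 2.82) for Has2 and 5.55 (SE 2.86) for Vcan. All 3 had an adjusted p of 0.749. Fitted fold changes against a group at 0 depend on the prior count and are no bounds. The summed level of the 7 genes, on the TMM scale of edgeR, was 5.01, 0.739 and 0 CPM in sham (mean 1.92 ± 2.70, SD, n = 3) and 0, 0 and 1.92 CPM in NTY (0.641 ± 1.11, n = 3). The log2 ratio of the means, NTY over sham, was -1.58 and turned to 0.80 without sham replicate 1.

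Among the other genes of the pathway, listed as 51 genes from ligands to matrix enzymes, the MII libraries held the oocyte factors Gdf9 and Bmp15 at high levels and had no reads of several receptor and matrix genes. In the MII libraries 26 of the 51 had counts in all 6 and 13 were at 0 in all 6. The genes at 0 were the ligand gene Btc, the receptor genes Erbb2, Lhcgr and Pgr, the transcription factor gene Runx1, the prostaglandin genes Ptgs1 and Ptger2, the hyaluronan synthase gene Has1, the matrix link genes Hapln1 and Hapln3, the hyaluronan receptor gene Cd44, the protease gene Adamts1, and Npr2, the receptor for the C-type natriuretic peptide. Has1 and Btc were at 0 in all 18 libraries.

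Of the other EGF-like ligand genes, 3 of 5 were present in all 6 MII libraries. Egf ranged from 4.42 to 22.1 TPM over the 6 MII libraries with a median of 12.5, Hbegf from 10.4 to 36.6 TPM with a median of 15.3, and Nrg1 from 3.75 to 6.25 TPM. The lowest value of these 3 genes was above the highest TPM of any expansion gene in an MII library. Tgfa did not share this, with 0 reads in NTY replicate 3 and from 0.401 to 2.07 TPM in the other 5 libraries, and Btc was at 0. The receptor gene Egfr ranged from 1.02 to 9.25 TPM, and the shedding proteases Adam17 and Adam10, which free EGF-like ligands from the membrane, from 24.3 to 80.9 and from 38.4 to 101 TPM. Of the prostaglandin E2 genes, the receptor gene Ptger4 was present in all 6 libraries, from 2.60 to 6.32 TPM, while the synthase gene Ptges had 17 reads in sham replicate 3 only. Among the hyaluronan synthases, Has3 was present in all 6 libraries, from 0.902 to 6.28 TPM with a median of 2.60, and its lowest value was above the highest of Has2. The versican-cleaving protease gene Adamts4 ranged from 5.70 to 19.3 TPM.

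Among the oocyte factors, Gdf9 and Bmp15 were abundant and Fgf8 was not. Gdf9, the oocyte growth factor that enables expansion, ranged from 4762 to 7844 TPM, and Bmp15, its partner, from 251 to 555 TPM. Fgf8, a growth factor gene, was at 0 in NTY replicate 3 and from 5.96 to 33.3 TPM in the other 5 MII libraries. Rgs2, a regulator of G protein signalling listed with the other cumulus genes, ranged from 973 to 1578 TPM. None of the 7 expansion genes came near the levels of Gdf9, Bmp15 or Rgs2 in any MII library.

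**Figure D2:**
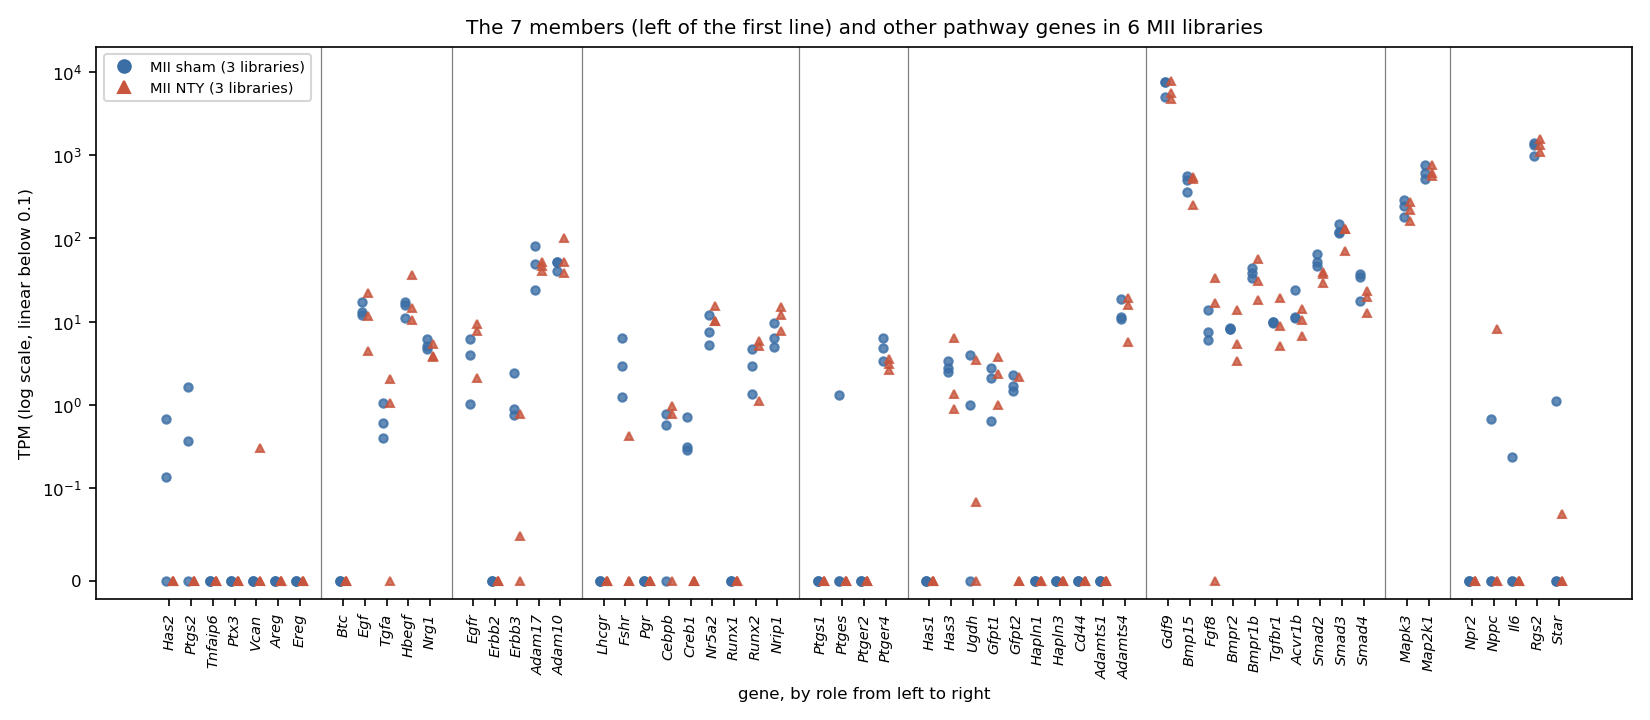
Deposited TPM of the 7 expansion genes (left of the first vertical line) and of the other pathway genes named on the axis, grouped by role, in the 3 MII sham libraries (circles) and the 3 MII NTY libraries (triangles), on a log axis that is linear below 0.1. Genes without a row in the TPM table had 0 counts and are drawn at 0. The expansion genes stay at or below 1.65 TPM, while Gdf9 lies between 4762 and 7844 TPM.

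Of the 51 pathway genes, 33 passed the filter in MII and 0 were called by edgeR or DESeq2 between NTY and sham. Their median log2 fold change was -0.05, beside 0.00 over all 12209 genes tested. An unadjusted p under 0.05 was reached by 2 of the 33, Creb1 and Fshr, and by 2.29% of all 12209 genes tested. Creb1, a transcription factor gene of the gonadotropin response, had 18, 35 and 13 reads in sham and 0 in each NTY library. Each sham library was above each NTY library, and pooled over libraries sham was 20.7-fold the floor of the NTY group (edgeR adjusted p = 0.877, DESeq2 adjusted p = 0.525). Fshr, the receptor gene for follicle-stimulating hormone on granulosa cells, had 11, 47 and 20 reads in sham and 3, 0 and 0 in NTY, again without overlap. Its log2 fold change was -4.36 (SE 1.76, edgeR adjusted p = 1.00). Every sham library was above every NTY library in 6% of all genes tested (733 of 12209).

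The summed cumulus and granulosa markers had a measurable level in the MII libraries, with most reads on Cyp19a1 and Esr2. In a microdissected library, Cyp19a1 and Esr2 reached 7 and 219 reads at most. Foxl2 reached 18125 reads there, and Nr5a2 and Kitl, also present in MII, 7127 and 3266. The 16 markers together ranged from 98.5 to 188 CPM in MII libraries, from 98.5 to 185 in sham and from 107 to 188 in NTY. Of the 16, the defining granulosa genes Foxl2, Amhr2 and Fst were at 0 in all 6, as were Slc38a3 and Npr2, and Amh had 2 reads in 1 library. Cyp19a1 (aromatase), Esr2 (estrogen receptor beta), Nr5a2 and Kitl (the ligand of Kit) were present in all 6, Cyp19a1 from 16.2 to 41.4 TPM and Esr2 from 24.1 to 60.6 TPM. The library with the most reads of expansion genes, sham replicate 1, had the lowest granulosa sum, 98.5 CPM. NTY replicate 3, the library with Vcan, had a sum of 153 CPM, with 88 reads of the gap junction gene Gja1 against 0 to 9 in the other MII libraries. No other of the 16 markers was highest in that library. Inha had 129 reads in NTY replicate 1 against 35 in NTY replicate 3. Inhba and Kitl had 59 and 164 reads in NTY replicate 2 against 14 and 74 in NTY replicate 3. Of the 16 markers, 7 passed the filter and were tested between NTY and sham, and edgeR and DESeq2 called 0 of the 7.

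Markers of other cells were at or near 0 for stroma, red blood cells and oviduct. The 6 stroma markers summed to 2.61, 2.91 and 0.337 CPM in MII sham and to 0 in each MII NTY library. Nearly all of these reads were of Dcn, with 25, 18 and 3 reads in the sham libraries. The only others were 7 reads of Col1a1 and 4 of Pdgfra in sham replicate 2, and the collagen genes Col1a2 and Col3a1 were at 0 in all 6. Dcn was thus higher in the sham libraries that had Ptgs2 and Has2, and its part in their pattern was not tested. The 4 red blood cell genes summed to 0 to 0.225 CPM and the 3 oviduct genes to 0 to 0.401 CPM, with Pax8 at 0. The 4 theca genes summed to 0.578 to 5.61 CPM. The 5 leukocyte genes summed to 15.7 to 49.9 CPM with Ptprc, Adgre1 and Lyz2 at 0, and the 4 endothelial genes to 109 to 173 CPM with Cdh5 at 0. Csf1r gave most of the leukocyte reads, 136 to 399 per MII library, and Pecam1 most of the endothelial reads, 777 to 1353.

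**Figure D3:**
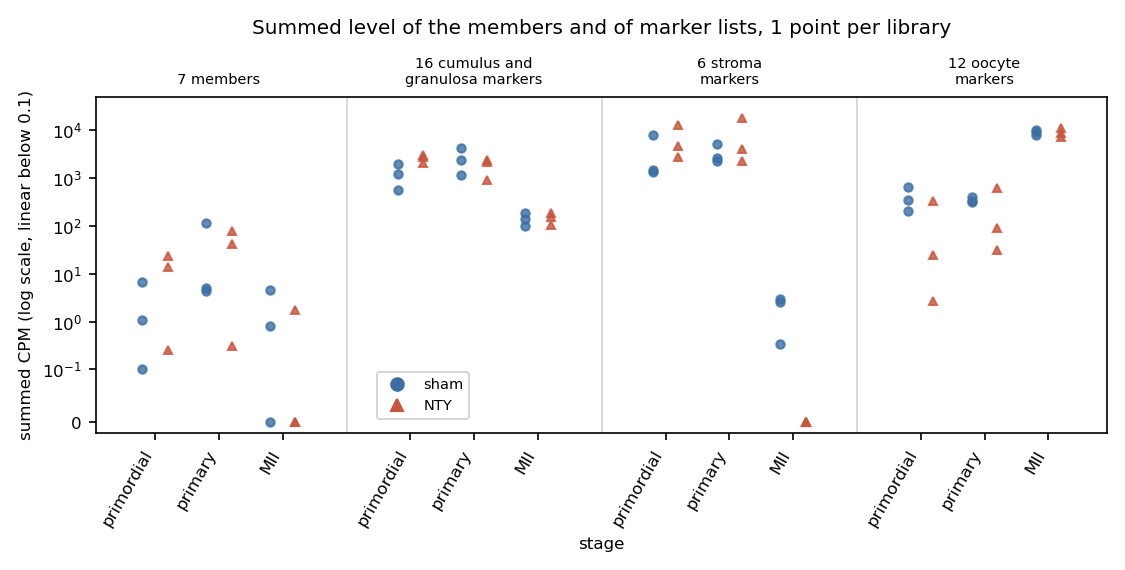
Summed CPM of the 7 expansion genes and of 3 marker lists in each of the 18 libraries, by stage, for sham (circles) and NTY (triangles), on a log axis that is linear below 0.1, with 1 point per library. In MII libraries the expansion genes reach 4.59 CPM at most and the oocyte markers 7381 CPM at least, while the granulosa markers lie between 98.5 and 188 CPM.

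The genes whose level over the 6 MII libraries was most like the summed expansion genes, by Pearson's r of log2(CPM + 1) among 7075 genes with a mean of at least 10 CPM, were Rrp36 (r = 0.976), Gng12 (0.968), Knop1 (0.965), Ptp4a1 (0.951) and Stx8 (0.940). Rrp36, a gene of ribosomal RNA processing, had 244, 91 and 69 reads in sham and 69, 73 and 121 in NTY. The likeness is a description over libraries that share depth and method, and the best of many genes is high by choice.

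The microdissected libraries differed from the MII libraries in which expansion genes they held. They had 6769 reads of the 7 genes, and 16 of 84 values were above 0, of which Vcan gave 12. Vcan, Tnfaip6, Ptgs2 and Ereg, 4 of the 7, had a count in at least 1 library, against 65.3% of protein-coding genes. Has2, Ptx3 and Areg were at 0 in all 12. The exon capture of this method depends on probes, and which of the 7 genes have one is not given in the sources used here.

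Vcan was counted in every microdissected library, as were 2685 of the 21890 protein-coding genes. Its level was 6.86, 0.103 and 0.996 CPM in primordial sham and 13.9, 23.5 and 0.259 CPM in primordial NTY. In primary follicles it was 4.35, 4.12 and 114 CPM in sham and 76.5, 0.301 and 41.3 CPM in NTY. Libraries of the same group differed widely, and in each comparison the groups overlapped. Group means were 2.65 ± 3.67 CPM in primordial sham, 12.6 ± 11.7 in primordial NTY, 40.9 ± 63.6 in primary sham and 39.4 ± 38.2 in primary NTY (SD, n = 3 each), so in primordial sham and primary sham the SD exceeded the mean. Per length the highest level was 23.0 TPM, in primary sham replicate 3, where Vcan had more reads than 83.1% of the protein-coding genes with a count. Gm4117, an antisense gene over Vcan, had 0 to 9 reads.

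**Figure D4:**
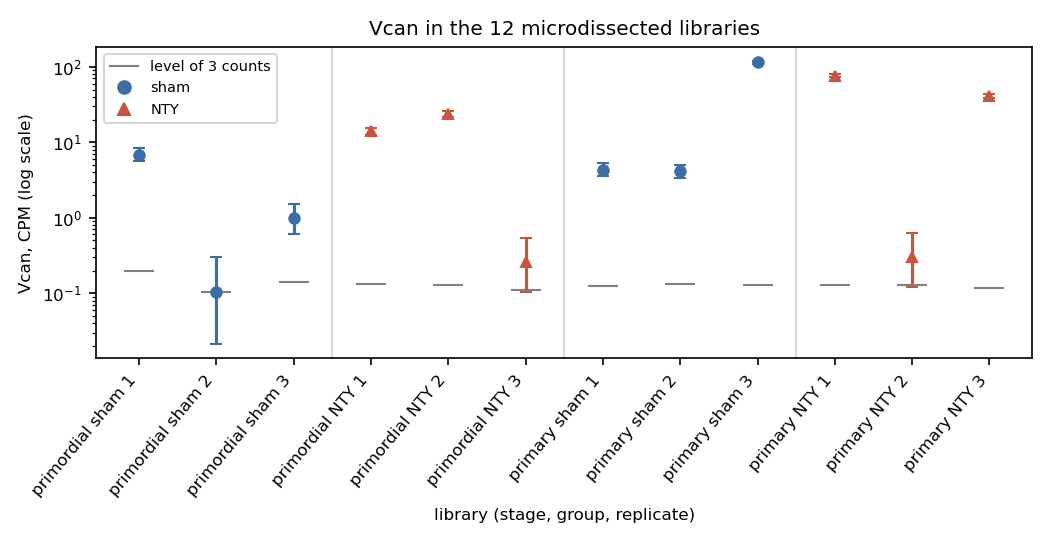
Vcan in CPM on a log axis in each of the 12 microdissected libraries, sham as circles and NTY as triangles, with 95% exact binomial intervals for counting error and a grey tick at the level of 3 counts. Levels run from 0.103 to 114 CPM, and libraries of one group differ by far more than their intervals.

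Vcan was the only one of the 7 genes to pass the filter in these libraries, and it was not called in any comparison (edgeR quasi-likelihood test, 12 libraries in a joint fit). For NTY against sham in primordial follicles its log2 fold change was 2.14 (SE 2.89, adjusted p = 0.876), where 0.0095% of the 10522 genes tested were called (1 gene). For NTY against sham in primary follicles it was 0.48 (SE 2.78, adjusted p = 1), where 0% were called. That sign turned under other settings, to -0.056 with plain library totals and to -0.16 with the replicate number as a block, and without single libraries the value ran from -0.46 to 3.50. For primary against primordial follicles it was 2.70 (SE 2.09, adjusted p = 0.721), where 0% were called, and it ran from 1.18 to 3.75 without single libraries. Unadjusted, 1145, 858 and 1132 genes had p under 0.05 for NTY in primordial follicles, NTY in primary follicles and the stage, and DESeq2 called 760, 485 and 590 genes. Vcan was not among them.

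Tnfaip6 had 18 reads in primary sham replicate 2, which is 0.797 CPM (0.473 to 1.26) and 1.39 TPM, 2 reads in primordial sham replicate 3 and none in the other 16 libraries of the series. Primary NTY replicate 1 held all 3 reads of Ptgs2 and the single read of Ereg found in microdissected material. None of these 3 genes passed the filter on low counts.

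Over the 12 microdissected libraries, the Vcan level was set against 4 other measures on the log2(CPM + 1) scale, all from the same libraries and so sharing their depth. With the summed granulosa markers, Pearson's r was 0.386 (permutation p = 0.215, adjusted 0.431) and Spearman's rho 0.462 (permutation p = 0.131, adjusted 0.262). Without the 2 libraries farthest from the median, r was 0.469, and within groups it was 0.286. With the summed stroma markers r was 0.00705 (permutation p = 0.982) and rho 0 (permutation p = 1), r was -0.144 without the 2 farthest libraries and -0.143 within groups. With the summed oocyte markers r was 0.125 (permutation p = 0.710) and rho -0.126 (permutation p = 0.701), r was -0.224 without the 2 farthest libraries and 0.278 within groups. With the number of genes that had a count, r was 0.544 (permutation p = 0.0711, adjusted 0.285) and rho 0.538 (permutation p = 0.0748, adjusted 0.262), r was 0.579 without the 2 farthest and 0.516 within groups. None of the 4 relations passed its test.

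In the same 12 libraries the granulosa markers summed to 564 to 4367 CPM, the stroma markers to 1376 to 17910 CPM and the oocyte markers to 2.63 to 668 CPM. The stroma sum was above the oocyte sum in all 12 and the granulosa sum in 11, although the libraries are labelled as oocytes. Primary sham replicate 3, highest in Vcan, also had the highest granulosa sum, 4367 CPM, and primordial sham replicate 2, lowest in Vcan, had the lowest, 564 CPM. Between these extremes the order was not kept. Primary NTY replicate 3, with 41.3 CPM of Vcan, had a lower granulosa sum than primary NTY replicate 2, with 0.301 CPM. Over all 12 libraries the relation did not pass its test (Pearson's r = 0.386, permutation p = 0.215). Primordial NTY replicate 3, with 2.63 CPM of oocyte markers, and primary NTY replicate 2 were low in Vcan and had reads on 27.7% and 31.7% of protein-coding genes. Primordial sham replicate 1, with the smallest share of these genes, 26.1%, had 6.86 CPM of Vcan, and primordial sham replicate 2, lowest in Vcan, had reads on 38.7%. The part of these measures in the spread of Vcan was tested only by the correlations above.

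Of the 51 other pathway genes, 32 were tested in the microdissected libraries and edgeR called 0 in each comparison. Their median log2 fold changes were -0.12 for NTY in primary follicles, 0.11 for NTY in primordial follicles and 0.41 for the stage, beside -0.10, 0.12 and 0.29 over all genes tested. DESeq2 called 1 of the 32 for NTY in primary follicles (Fgf8), 2 for NTY in primordial follicles (Ptger4 and Tgfbr1) and 1 for the stage (Tgfbr1). Over all 10522 genes tested it called 4.61%, 7.22% and 5.61% in these comparisons, so the calls among the 32 were near the background.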

How the data were processed

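RNA-seq was measured in 18 mouse oocyte libraries, grouped by their labels. The authors deposited whole-number counts per gene and TPM values. The submitters' processing notes name Trim Galore 0.4.1, TopHat2, featureCounts and mm10. The handling of strand and of reads on several genes is not given in the sources used here. Genes were joined on Ensembl identifiers, and Ptx3 and Areg, without a row in the deposited TPM table, were named from GENCODE M21 (GRCm38, 53620 of 53715 identifiers). The genes and lists were chosen with earlier results of these data known. All 7 genes are named, any list gene may be named, and the 5 genes most alike are named by r. Of the pathway genes, 1 is counted but not reported here.

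Counts were tested with edgeR 4.0.16 in R 4.3.3 (quasi-likelihood, robust, TMM, filterByExpr, Benjamini-Hochberg threshold 0.05), MII libraries alone and microdissected libraries in a joint fit. The scripts were tested on simulated data. Alternatives were RLE, plain totals, DESeq2 1.42.0, limma 3.58.1 (voom with quality weights, and log2(TPM + 1)), any count, a replicate block, a minimum of 10 counts per library, primary NTY replicates 2 and 3 summed, and leaving out each library. Exact tests and 100000 permutations used scipy 1.17.1 in Python 3.11.15. The lowest chi-square per degree of freedom between replicates was 34.1, and each library was counted as a sample of its own. Primary NTY replicates 2 and 3 have nearly the same library code, and whether they share material is not labelled.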

Additional observations from a re-analysis of the deposited data

How the results depend on the processing

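In MII oocytes the main edgeR test called 0 genes, as did every alternative and every fit leaving a library out, except DESeq2 with 29. The expansion genes tested rose from 0 to 3 with any count kept. The log2 ratio of their summed level was -1.58, -3.21 with the deposited TPM, and -2.16 to 0.80 over single libraries left out. Without NTY replicate 3 it has no value, because every NTY library is then at 0. For NTY in primary follicles (0 calls), DESeq2 called 485 genes, limma on log2(TPM + 1) 3 and voom 58. For NTY in primordial follicles (1 call), the filter of 10 counts gave 0, DESeq2 760, limma on log2(TPM + 1) 2, summed primary NTY replicates 3, RLE 2 and voom 0, with 0 to 3 over single libraries left out. For the stage (0 calls), any count gave 3, DESeq2 590 and voom 1, with 0 to 3 over single libraries left out. The log2 fold change of Vcan for NTY in primary follicles (0.48) turned to -0.056 with plain totals and -0.16 with the replicate block, and ran from -0.46 to 3.50 over single libraries left out. The other 2 comparisons of Vcan kept their sign, from 1.06 to 4.51 in primordial follicles and from 1.18 to 3.75 for the stage. The adjusted p of Vcan ran from 0.720 to 0.967 in primordial follicles, from 0.968 to 1 in primary follicles and from 0.422 to 1 for the stage. Same-numbered libraries did not deviate together (correlations of -0.0825 to 0.0853), no label says that they share an animal, and the replicate block gave 0 calls in MII, 0 and 1 for NTY in primary and primordial follicles, and 0 for the stage. The cause of these changes was not tested. In an MII library a count of 0 allows a level of up to 0.301 to 0.347 CPM.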
